A study of Mus musculus with 23 samples.

Results

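The 10 genes described here encode chaperones and folding enzymes of the endoplasmic reticulum (ER) lumen: Hspa5, Hyou1, Dnajb11, Sdf2l1, Hsp90b1, Calr, Pdia3, Pdia4, Pdia6 and Creld2. They were taken by name from 52636 genes in the count files, and all 10 were matched to an Ensembl gene and passed the filter on low counts, as did 17788 genes in all. They were chosen by measured values among others: the list was drawn up with results of these data known, in which ER chaperone genes had lower RNA levels in P301S than in WT hippocampus in normoxia, and lower ones with hypoxia in WT. Those comparisons are therefore given here as a description, with no p for the genes, and nothing is read from how many of them were called there.

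The study measured RNA from whole hippocampus of mice by stranded, poly(A)-selected, paired-end RNA sequencing. The 23 libraries fall into 4 groups: P301S mice in hypoxia (6 libraries), P301S mice in normoxia (5 libraries), wild-type (WT) mice in hypoxia (6 libraries) and WT mice in normoxia (6 libraries). P301S is a missense mutation of the microtubule-associated protein tau that causes familial frontotemporal dementia, and hypoxia is the chronic intermittent hypoxia of the study's title, a model of the oxygen swings of sleep apnoea. All mice were on a mixed C57Bl6 and Balbc background, and every RNA sample had passed an integrity cutoff, per the labels' protocols. The sources used here do not give the transgene's promoter, the sex and age of the mice or the hypoxia schedule. In WT, the titles of normoxia replicates 1 to 5 share a number of unexplained meaning, as do those of hypoxia replicates 1 to 4 and of hypoxia replicates 5 and 6. Each P301S library has a number of its own, and no number occurs in more than 1 of the 4 groups, so what it stands for cannot be told apart from genotype or hypoxia in any of the comparisons. Since no label ties a library to its own animal, the p-values reflect only how far these libraries differ among themselves. With whole tissue, fewer cells of a type and less RNA per cell cannot be told apart.

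ER lumen chaperones fold proteins that enter the secretory pathway, which in neurons include receptors, channels and neuropeptides. Hspa5 encodes BiP, the ER member of the Hsp70 family, which binds unfolded stretches of new proteins and is assisted by co-chaperones. Calreticulin and the disulfide isomerases handle glycoproteins and cysteine bonds. When unfolded proteins accumulate, the unfolded protein response raises transcription of these genes through the factors ATF6 and XBP1. ATF6 acts together with the CCAAT-binding factor NF-Y at a promoter motif called the ER stress response element (ERSE).

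The promoter windows of 5 of the 10 genes held that motif, and its copies are shown as a description. The genes were listed as ER folding genes, a class that the unfolded protein response raises through this motif. Nothing is therefore read from how often it occurs here. RefSeq promoter windows of GRCm38.p6, covering 250 bases before to 50 bases after the annotated start, were found for 9 of the 10 genes; Hyou1 was not among them. The ERSE was searched as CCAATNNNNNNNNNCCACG and a shorter form, ERSE-II, as ATTGGNCCACG, each on both strands. An ERSE contains a CCAAT box by construction. An ERSE was present in 5 of the 9 windows, against 39 of 32851 promoter windows (0.119%), and Hsp90b1 had a pair of copies. Dnajb11 held an ERSE-II, found in 12 of 32851 windows (0.0365%). Sdf2l1, Pdia3 and Pdia4 held neither, which says only that these letters are not in their windows. All 9 windows held at least 1 CCAAT box, against 37.4% of all windows. The elements, written in the orientation of the motif with its fixed letters in capitals, are these.
Hspa5: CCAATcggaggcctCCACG
Calr: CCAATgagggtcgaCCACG
Hsp90b1 first copy: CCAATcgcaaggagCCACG
Hsp90b1 second copy: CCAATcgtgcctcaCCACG
Pdia6: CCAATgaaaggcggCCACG
Creld2: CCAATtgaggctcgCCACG
Dnajb11 (ERSE-II): ATTGGcCCACG

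Counting the RefSeq start as 0, the Hspa5 element lay at -65 to -47 in sense orientation and that of Pdia6 at -98 to -80 in sense orientation. Antisense elements lay at -162 to -144 in Calr and at -126 to -108 in Creld2. Hsp90b1 held a sense copy at -212 to -194 and an antisense copy at -107 to -89. The Dnajb11 ERSE-II lay after the start, at 7 to 17. The windows of 4 of these genes are printed 5′ to 3′ on the gene's strand, with the fixed letters of the motif in capitals, together with that of Sdf2l1, which had no match and the largest fold change in every comparison but P301S against WT in hypoxia.
Hspa5 chr2:34771840-34772139 plus strand: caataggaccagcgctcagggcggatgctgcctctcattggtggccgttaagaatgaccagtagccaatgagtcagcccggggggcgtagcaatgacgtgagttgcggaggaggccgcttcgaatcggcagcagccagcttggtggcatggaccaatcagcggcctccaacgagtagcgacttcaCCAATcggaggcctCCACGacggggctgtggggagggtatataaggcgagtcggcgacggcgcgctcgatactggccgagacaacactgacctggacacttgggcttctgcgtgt
Calr chr8:84846882-84847181 minus strand: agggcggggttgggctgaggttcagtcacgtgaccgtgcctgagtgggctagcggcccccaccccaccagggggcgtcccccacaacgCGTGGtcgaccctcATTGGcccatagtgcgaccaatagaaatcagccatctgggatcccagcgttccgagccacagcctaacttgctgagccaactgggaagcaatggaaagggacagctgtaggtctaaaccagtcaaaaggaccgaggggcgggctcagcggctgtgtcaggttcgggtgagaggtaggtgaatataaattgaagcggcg
Pdia6 chr12:17266339-17266638 plus strand: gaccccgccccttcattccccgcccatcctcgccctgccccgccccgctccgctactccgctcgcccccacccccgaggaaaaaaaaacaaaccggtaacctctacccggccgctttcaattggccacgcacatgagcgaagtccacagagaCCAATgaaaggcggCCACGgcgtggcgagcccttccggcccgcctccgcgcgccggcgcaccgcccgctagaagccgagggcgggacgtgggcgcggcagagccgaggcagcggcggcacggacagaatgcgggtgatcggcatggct
Creld2 chr15:88819396-88819695 plus strand: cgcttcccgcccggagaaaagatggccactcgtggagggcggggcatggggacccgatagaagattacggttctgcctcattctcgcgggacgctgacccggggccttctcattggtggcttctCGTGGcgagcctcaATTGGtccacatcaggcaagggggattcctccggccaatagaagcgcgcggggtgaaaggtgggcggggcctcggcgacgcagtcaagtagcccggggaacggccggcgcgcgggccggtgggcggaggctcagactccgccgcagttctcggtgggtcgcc
Sdf2l1 chr16:17132334-17132633 minus strand: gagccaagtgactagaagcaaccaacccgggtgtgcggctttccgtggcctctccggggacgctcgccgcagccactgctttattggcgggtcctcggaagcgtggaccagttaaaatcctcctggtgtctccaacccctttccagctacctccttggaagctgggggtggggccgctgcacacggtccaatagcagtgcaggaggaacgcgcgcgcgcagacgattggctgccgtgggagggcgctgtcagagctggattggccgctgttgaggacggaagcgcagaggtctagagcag

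**Figure D1:**
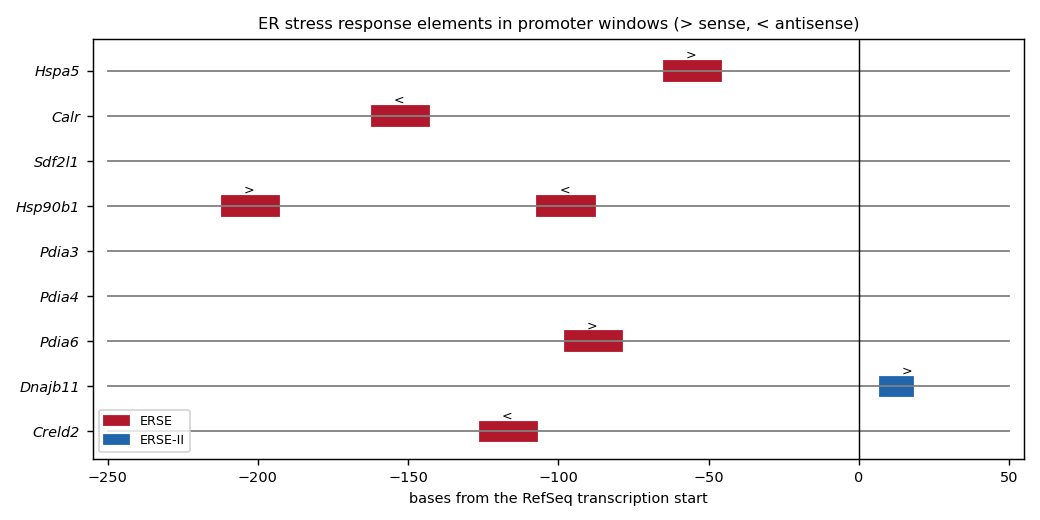
Position of each ERSE (red) and ERSE-II (blue) in the promoter windows of the 9 genes with a window, in bases from the RefSeq start at 0; the mark above a box gives its orientation. The ERSE copies all lie before the start, between -212 and -47, and the single ERSE-II lies after it.

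Levels are given in CPM, a gene's counts relative to the size of its library, with sizes scaled by the trimmed mean of M-values (TMM). Library totals ran from 19134422 to 25820145 counts, TMM scaling factors from 0.961 to 1.03, and mitochondrial counts from 2.14% to 2.99% of a library. The 10 genes together took 0.106% to 0.162% of a library's counts, or 22738 to 40165 counts. The genotype labels were checked at Lamr1-ps1, a pseudogene beside the prion protein gene, which separated the genotypes without overlap: it averaged 3.0 ± 0.53 CPM (SD, n = 6) in P301S hypoxia and 2.96 ± 0.914 CPM (n = 5) in P301S normoxia, and had 0 counts in every WT library. Prn also separated the genotypes, with at least 2.56 CPM in every P301S library and at most 0.400 CPM in every WT library. Why these genes mark the genotype was not tested. Mapt averaged 679 ± 52.5, 713 ± 41.6, 691 ± 35.3 and 684 ± 35.3 CPM in P301S hypoxia, P301S normoxia, WT hypoxia and WT normoxia (SD, n = 6, 5, 6 and 6). Its ranges overlapped between the genotypes. Neuron markers were present in all libraries (summed level 8474 to 11114 CPM over 8 genes), as were 6 of 6 dentate granule cell markers. The astrocyte marker Gfap and the microglia marker P2ry12 are listed at 0 in every library, while the other 6 markers of each list were measured.

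The libraries differed most in choroid plexus, a tissue next to the hippocampus, and this is given before the results because it moved with the groups. The summed level of its 12 markers ran from 67.2 to 2714 CPM in P301S hypoxia (median 1223), from 587 to 3322 CPM in P301S normoxia (median 831), from 90.004 to 3019 CPM in WT hypoxia (median 663) and from 99.9 to 3719 CPM in WT normoxia (median 3159). All groups overlapped, 0 of the 12 markers passed the edgeR test in any of the 5 comparisons, and 0 had an unadjusted p under 0.05. None of the 12 was at 0. Their median log2 fold change was -0.16 for P301S against WT in hypoxia, -0.49 for P301S against WT in normoxia, -0.69 for hypoxia in P301S, -0.97 for hypoxia in WT and 0.28 for the interaction. Results for the folding genes are given below with a score of these markers as a covariate and without the 6 libraries lowest in it. Those 6 are WT hypoxia replicates 1, 4 and 5, P301S hypoxia replicates 1 and 4, and WT normoxia replicate 4. None is from P301S normoxia, so leaving them out shrinks the groups unevenly. What part the loss of libraries had in those results was not tested.

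Across the 4 groups the 10 genes moved together: their levels were lower in P301S normoxia and in WT hypoxia than in WT normoxia, while the mean of P301S hypoxia lay above both of these groups for each gene and, except for Hsp90b1, below that of WT normoxia. For Pdia4, Pdia6 and Creld2 it was nearer to WT hypoxia than to WT normoxia. Relative to the WT normoxia mean on the log2 scale, 44 of 60 values (10 genes in 6 libraries) were lower in P301S hypoxia, 49 of 50 in P301S normoxia and 60 of 60 in WT hypoxia. In WT normoxia itself 28 of 60 values lay below its mean; replicates 4, 5 and 6 had 1, 1 and 0 genes below it, and replicates 1, 2 and 3 had 7, 9 and 10. In P301S hypoxia, replicates 3, 4 and 6 had 10 genes each below the WT normoxia mean, replicates 1 and 5 had 7 and 6, and replicate 2, the highest library of its group for 10 of the 10 genes, had 1. WT hypoxia was the most uniform group, with the smallest coefficient of variation of the 4 groups for 8 of the 10 genes (median 5.83%, against 11.1% in P301S hypoxia, 8.46% in P301S normoxia and 10.99% in WT normoxia).

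**Figure D2:**
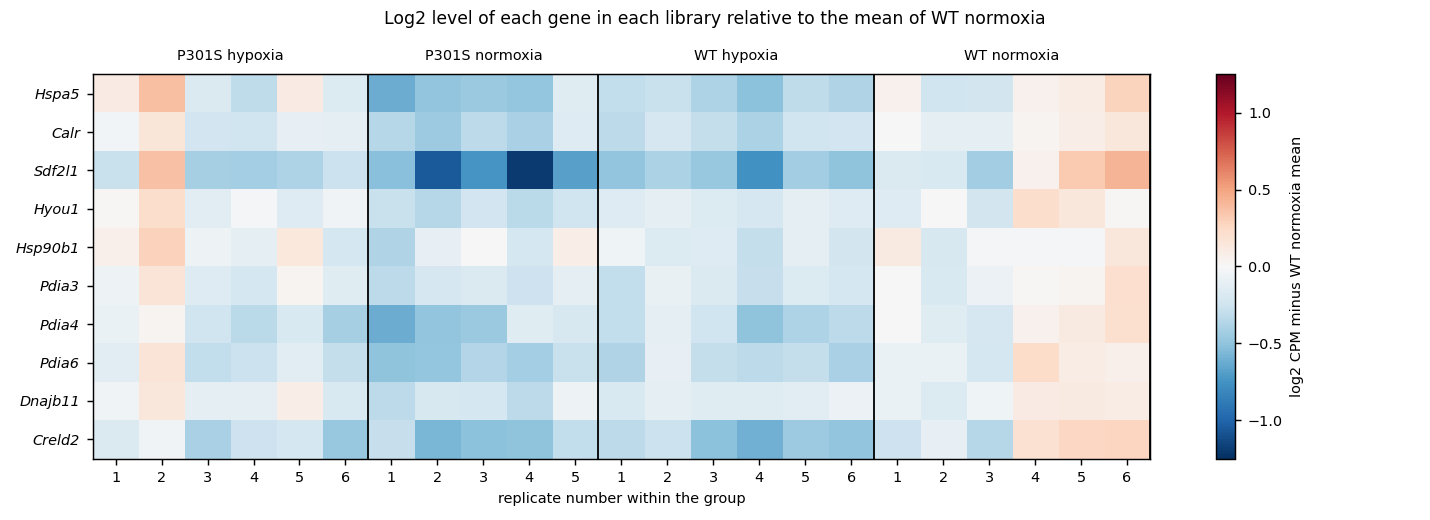
Log2 CPM of each gene (rows) in each of the 23 libraries (columns, by replicate number within a group) minus the mean of WT normoxia; red is higher and blue lower. P301S normoxia and WT hypoxia are blue throughout apart from Hsp90b1 in P301S normoxia replicate 5, and P301S hypoxia replicate 2 is the reddest column outside WT normoxia.

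The Hsp70 system of the ER comprised Hspa5 and its helpers. Hspa5 (ENSMUSG00000026864, chr2:34771970-34777547, mm10, plus strand) had 230 to 372 CPM in P301S hypoxia (median 282), and 187, 204, 209, 206 and 259 CPM in P301S normoxia. In WT hypoxia it had 201 to 237 CPM (median 226), and in WT normoxia 241 to 348 CPM (median 298). All 6 WT hypoxia libraries were below all 6 WT normoxia libraries, and 4 of the 5 P301S normoxia libraries were below them as well. Its log2 fold change was -0.44 (SE 0.109) for P301S against WT in normoxia and -0.37 (SE 0.103) for hypoxia in WT. In hypoxia the sign was opposite: P301S was at 0.37 relative to WT (SE 0.103, edgeR adjusted p = 0.0642), and hypoxia within P301S gave 0.44 (SE 0.109, adjusted p = 0.0784). Neither passed the threshold of 0.05.

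Sdf2l1 (ENSMUSG00000022769, chr16:17130138-17132383, minus strand), which encodes a partner of the BiP co-chaperone ERdj3, had the lowest level per length, and the largest fold change in every comparison but P301S against WT in hypoxia, where that of Hspa5 was larger. It had 7.85 to 13.6 CPM in P301S hypoxia (median 8.41) and 7.32, 5.07, 6.33, 4.58 and 6.58 CPM in P301S normoxia. In WT hypoxia it had 6.23 to 7.999 CPM (median 7.55), against 7.80 to 14.3 CPM in WT normoxia (median 10.1). Every P301S normoxia library lay below every library of WT normoxia and of P301S hypoxia. The log2 fold change was -0.86 (SE 0.162) for P301S against WT in normoxia and -0.54 (SE 0.152) for hypoxia in WT. Hypoxia in P301S gave 0.62 (SE 0.162, adjusted p = 0.0925), and P301S against WT in hypoxia 0.30 (SE 0.152, adjusted p = 0.297).

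Hyou1 (ENSMUSG00000032115, chr9:44379490-44392369, plus strand) encodes GRP170, a nucleotide exchange factor of BiP. It had 127 to 164 CPM in P301S hypoxia (median 138) and 116, 110, 120, 111 and 119 CPM in P301S normoxia, so that these groups did not overlap. In WT hypoxia it had 122 to 131 CPM (median 126) and in WT normoxia 121 to 165 CPM (median 142), and P301S normoxia lay below both. Its log2 fold changes were -0.30 (SE 0.0690) for P301S against WT in normoxia and -0.16 (SE 0.0655) for hypoxia in WT; hypoxia in P301S gave 0.27 (SE 0.0690, adjusted p = 0.0784). Dnajb11 (ENSMUSG00000004460, chr16:22857845-22879634, plus strand), which encodes ERdj3, differed less. Its means were 54.3 ± 4.85, 47.5 ± 3.62, 50.5 ± 1.31 and 55.7 ± 4.54 CPM in P301S hypoxia, P301S normoxia, WT hypoxia and WT normoxia, with log2 fold changes of -0.23 (SE 0.0632) for P301S in normoxia and 0.19 (SE 0.0632, adjusted p = 0.176) for hypoxia in P301S.

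Hsp90b1 (ENSMUSG00000020048, chr10:86690209-86705509, minus strand) encodes GRP94, the ER member of the Hsp90 family, and differed least in normoxia. It averaged 145 ± 18.9 CPM in P301S hypoxia, 132 ± 16.0 CPM in P301S normoxia, 127 ± 7.41 CPM in WT hypoxia and 143 ± 12.0 CPM in WT normoxia. The groups overlapped in every comparison. Its log2 fold change was -0.12 (SE 0.0838) for P301S against WT in normoxia and -0.18 (SE 0.0799) for hypoxia in WT, against 0.20 (SE 0.0799, adjusted p = 0.184) for P301S in hypoxia. The genes 1810014B01Rik, Gm15344 and Gm25745 overlap 30.9% of its gene body, so its count is less certain than that of the others. None of the other 9 genes had more than 0.445% of its body overlapped.

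The lectin arm was represented by Calr and Pdia3. Calr (ENSMUSG00000003814, chr8:84841850-84846934, minus strand) encodes calreticulin, which holds glycoproteins in the ER and buffers calcium, and was the most abundant of the 10 per length. It had 329 to 433 CPM in P301S hypoxia (median 362) and 305, 285, 311, 295 and 348 CPM in P301S normoxia. In WT hypoxia it had 298 to 336 CPM (median 323), against 357 to 430 CPM in WT normoxia (median 394). WT normoxia lay wholly above both P301S normoxia and WT hypoxia. The log2 fold change was -0.34 (SE 0.0666) for P301S against WT in normoxia and -0.29 (SE 0.0632) for hypoxia in WT. In P301S, hypoxia gave 0.25 (SE 0.0665, adjusted p = 0.104), and P301S against WT in hypoxia gave 0.19 (SE 0.0632, adjusted p = 0.108). Pdia3 (ENSMUSG00000027248, chr2:121413775-121438687, plus strand) encodes ERp57, the isomerase that works on proteins held by calreticulin. It averaged 179 ± 18.0 CPM in P301S hypoxia, 160 ± 8.68 CPM in P301S normoxia, 161 ± 8.88 CPM in WT hypoxia and 187 ± 17.5 CPM in WT normoxia, the same order of groups with smaller gaps. Its log2 fold changes were -0.22 (SE 0.0673) for P301S in normoxia and -0.21 (SE 0.0641) for hypoxia in WT.

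Among the disulfide isomerases without a lectin partner, Pdia6 (ENSMUSG00000020571, chr12:17266545-17284770, plus strand), which encodes the isomerase P5, had 102 to 141 CPM in P301S hypoxia (median 109) and 88.7, 89.9, 97.3, 93.6 and 104 CPM in P301S normoxia. In WT hypoxia it had 94.8 to 117 CPM (median 101), against 108 to 148 CPM in WT normoxia (median 125). P301S normoxia lay wholly below WT normoxia. Its log2 fold changes were -0.41 (SE 0.0820) for P301S in normoxia, -0.30 (SE 0.0778) for hypoxia in WT and 0.26 (SE 0.0819, adjusted p = 0.166) for hypoxia in P301S. Pdia4 (ENSMUSG00000025823, chr6:47796141-47813430, minus strand), which encodes ERp72, averaged 50.1 ± 5.74 CPM in P301S hypoxia, 44.4 ± 6.28 CPM in P301S normoxia, 46.5 ± 4.30 CPM in WT hypoxia and 57.9 ± 6.25 CPM in WT normoxia. P301S against WT in hypoxia gave a log2 fold change of 0.11 (SE 0.0891, adjusted p = 0.552).

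Creld2 (ENSMUSG00000023272, chr15:88819646-88826681, plus strand), which encodes a secretory-pathway protein with EGF-like domains induced by ER stress, had 18.1 to 24.5 CPM in P301S hypoxia (median 21.3) and 20.7, 17.0, 17.6, 17.7 and 20.3 CPM in P301S normoxia. In WT hypoxia it had 16.6 to 20.8 CPM (median 18.1), against 19.6 to 30.4 CPM in WT normoxia (median 26.1). P301S normoxia and WT hypoxia each overlapped WT normoxia through its lowest library alone. The log2 fold change was -0.46 for P301S in normoxia (SE 0.107) and -0.46 for hypoxia in WT (SE 0.102). Hypoxia in P301S gave 0.18 (SE 0.107, adjusted p = 0.491).

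**Figure D3:**
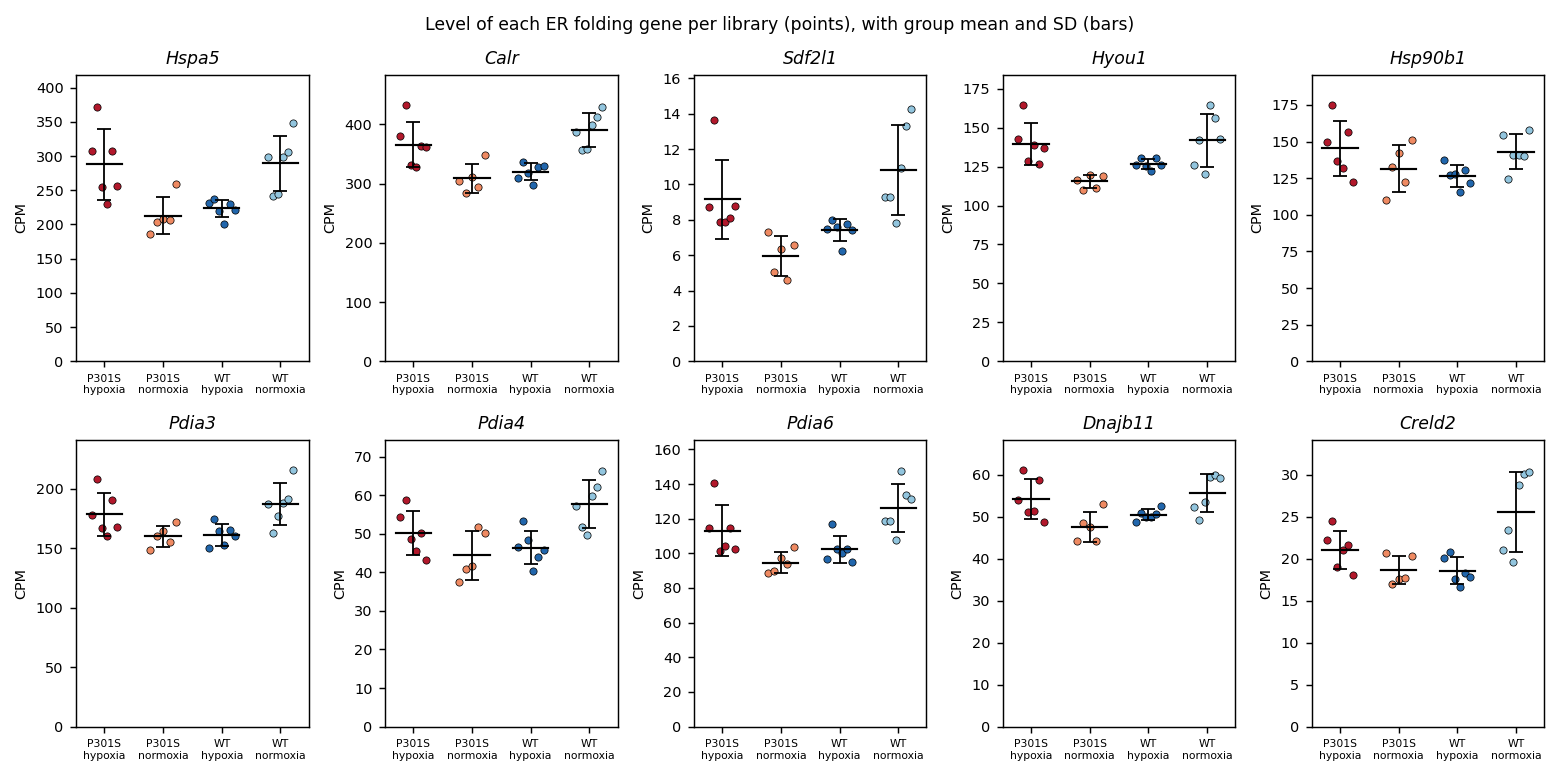
Level in CPM of each of the 10 genes in every library (points), with the mean and SD of the group (bars); each panel starts at 0 and has its own scale. P301S normoxia and WT hypoxia lie below WT normoxia in every panel by their means, and the mean of P301S hypoxia lies above both of them in every panel.

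Set beside all tested genes, the comparison of P301S with WT in normoxia called 9 of the 10 genes, all lower and all but Hsp90b1, where edgeR called 5.93% of all tested genes and 3.59% as lower. Nothing is read from that count, because the choice of genes rested on this comparison. The median log2 fold change of the 10 was -0.36, against 0.01 over all tested genes. The groups did not overlap for 4 of the 10 (Calr, Sdf2l1, Hyou1 and Pdia6), as for 1.72% of all genes in that direction. Without P301S normoxia replicate 2, 3 of the 10 were called (1.84% of all genes). A fit of only the compared groups called 4 (2.13% of genes), and one without the 6 libraries lowest in choroid plexus markers called Calr, Sdf2l1 and Pdia6 (2.04% of genes). A fit that held the choroid plexus score as covariate called 8, where 6.14% of genes were called, with a median of -0.36. Of all 9 lists of cell type markers, 1 gene was called in this comparison, the dentate granule cell marker C1ql2 at -0.78 (adjusted p = 0.0120); its part in the result was not tested.

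For hypoxia in WT, likewise a description, 0 of the 10 passed edgeR's adjusted threshold, which 0.0787% of all genes passed. DESeq2 called 4 (Hspa5, Calr, Pdia6 and Creld2), where it called 0.85% of genes. Nothing is read from these counts, because the choice of genes rested on this comparison too. All 10 fold changes were negative, with a median of -0.30, and Hspa5 and Calr were the 2 genes whose groups did not overlap, as for 0.394% of all genes. The median was -0.29 with the choroid plexus covariate and -0.22 without the 6 libraries lowest in choroid plexus markers. Of the marker lists, choroid plexus and ependymal markers had the medians farthest from 0 in this comparison (-0.97 and -0.51), with 0 of 12 and 0 of 7 called; the ependymal part in the result was not tested.

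In hypoxia, the comparison of P301S with WT ran the other way for the 10 genes, but 0 of 10 passed edgeR's threshold, where 1.93% of all genes did. All 10 fold changes were positive, from 0.10 to 0.37, with a median of 0.17 against 0.00 over all genes. At an unadjusted p under 0.05 the count was 5 of 10, against 8.68% of all genes called higher, and DESeq2 called Hspa5 and Calr, where it called 7.17% of genes. None of the 10 had groups that did not overlap, as 0.68% of all genes did in that direction. This comparison shares its WT hypoxia libraries with the one of hypoxia in WT, so its values are not independent of it. Those libraries were seen to be low when the genes were chosen, which favoured positive fold changes here. Nothing is therefore read from the counts or p of the 10 genes in this comparison. With the choroid plexus covariate the median was 0.17, and 5 of 10 had an unadjusted p under 0.05. Without the 6 libraries lowest in choroid plexus markers the median was 0.14, with fold changes from 0.03 to 0.40, and 1 of 10 had an unadjusted p under 0.05, as did 13.8% of all genes in either direction. Without P301S hypoxia replicate 2 the median was 0.11, and Hspa5 was at 0.27, Sdf2l1 at 0.15 and Pdia6 at 0.06. Without P301S hypoxia replicate 4 or 6, Hspa5 was the single gene called.

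Hypoxia within P301S gave positive fold changes for 10 of the 10 genes, from 0.14 to 0.62, and 0 passed edgeR's threshold, where 0.304% of all genes did. The median was 0.22, against 0.00 over all genes. At an unadjusted p under 0.05 the count was 7 of 10, against 6.8% of all genes called higher. DESeq2 called Hspa5, Calr, Sdf2l1 and Hyou1, where it called 2.88% of genes. Sdf2l1 and Hyou1 had groups that did not overlap, as for 1.01% of all genes in that direction. The median was 0.22 with the choroid plexus covariate and 0.24 without the 6 libraries lowest in choroid plexus markers; without P301S hypoxia replicate 2 it was 0.17. Without WT normoxia replicate 4, Hyou1 alone was called. The P301S normoxia libraries of this comparison are those that were seen to be low when the genes were chosen. That choice favoured positive fold changes here, so nothing is read from the counts or p of the 10 genes in this comparison.

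The interaction asks whether hypoxia acted differently in P301S than in WT mice, and for the 10 genes it was positive throughout, at 0.32 to 1.16 on the log2 scale with a median of 0.51, against 0.00 over all genes. No tested gene passed edgeR's adjusted threshold (0 of 17788, or 0%), while 9.28% of all genes had an unadjusted p under 0.05, 4.3% in the positive direction; all 10 folding genes were among these. P301S normoxia and WT hypoxia, the groups seen to be low when the genes were chosen, both enter the interaction with a minus sign. That choice favoured a positive interaction, so nothing is read from this count or from the p and ranks that follow. Calr (0.53, SE 0.0918, adjusted p = 0.0633) had the lowest p of all 17788 genes. Hspa5 (0.81, SE 0.150, adjusted p = 0.0691) ranked 4, Sdf2l1 (1.16, SE 0.222, adjusted p = 0.0713) ranked 6 and Pdia6 (0.56, SE 0.113, adjusted p = 0.0864) ranked 10. Hyou1 was at 0.44 (adjusted p = 0.131), Creld2 at 0.64 (0.150), Pdia3 at 0.37 (0.187), Pdia4 at 0.49 and Dnajb11 at 0.33 (both 0.226), and Hsp90b1, the lowest, at 0.32 (0.383), the values in brackets being adjusted p.

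Whether the interaction was called depended on the test. DESeq2 called 7 of the 10 (Hspa5, Calr, Sdf2l1, Hyou1, Pdia3, Pdia6 and Creld2), with the lowest adjusted p at 6.83e-05, where it called 52 genes or 0.346%. A version of edgeR's method with adjusted deviances, chosen after seeing the data, called Hspa5 and Calr, where it called 0.0394% of genes. With the choroid plexus covariate, or with no filter on low counts, Calr alone was called, where 0.0394% and 0.01% of genes were. Calr was also called without WT hypoxia replicate 2, and Hspa5 and Calr without P301S normoxia replicate 5 or P301S hypoxia replicate 4. The fold changes themselves moved little: the median was 0.45 without the 6 libraries lowest in choroid plexus markers and 0.46 without P301S hypoxia replicate 2. Without those 6 libraries edgeR called 0 genes. The lowest edgeR adjusted p of the 10 was then 0.463, against 0.0633 with all libraries. The interaction combines the 4 groups, including those seen to be low, so it is no independent evidence of that pattern.

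**Figure D4:**
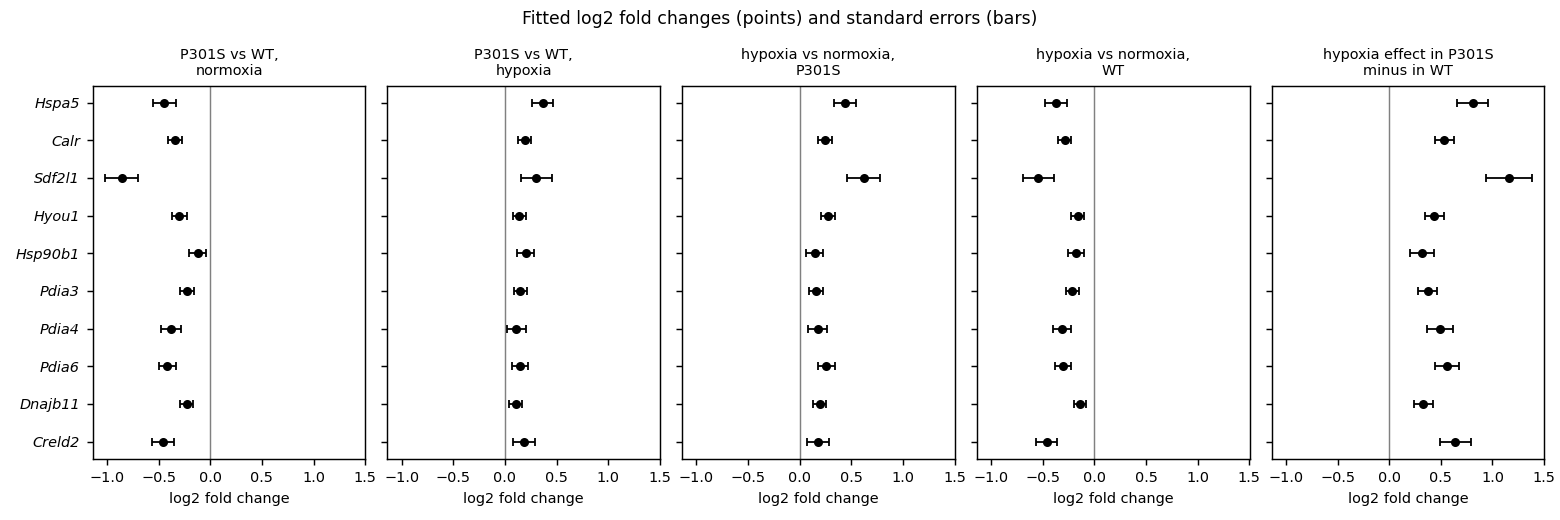
Log2 fold change of each gene (points) with its standard error (bars) in the 4 pairwise comparisons and in the interaction, from 1 edgeR fit of all 23 libraries. The values lie below 0 for P301S in normoxia and for hypoxia in WT, above 0 for P301S in hypoxia and for hypoxia in P301S, and between 0.32 and 1.16 for the interaction.

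Levels of different genes were compared per kilobase of exon, although the counts also include intron reads, so they are approximate. Calr was highest in WT normoxia at 136 ± 10.1 CPM per kb (n = 6), followed by Hspa5 at 68.4 ± 9.55, Pdia3 at 59.6 ± 5.57, Hsp90b1 at 35.5 ± 2.99, Pdia6 at 33.7 ± 3.77 and Pdia4 at 24.1 ± 2.61. Hyou1 (19.6 ± 2.35), Creld2 (18.7 ± 3.51) and Dnajb11 (17.2 ± 1.40) came next and Sdf2l1 (9.77 ± 2.28) was last. Library ranges overlapped between Hspa5 and Pdia3, between Hsp90b1 and Pdia6, and along the run from Pdia4 to Dnajb11. They did not overlap between Calr and Hspa5, Pdia3 and Hsp90b1, Pdia6 and Pdia4, or Dnajb11 and Sdf2l1. In P301S normoxia Pdia3 (51.0 ± 2.76) and Hspa5 (50.3 ± 6.43, n = 5) stood in the reverse order, with overlapping ranges. Dnajb11 stood above Creld2 in P301S hypoxia, P301S normoxia and WT hypoxia, also with overlapping ranges.

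Within groups, where the group means cannot enter, the 10 genes still varied together from library to library. After each group's mean was removed from log2 CPM, Pearson's r between pairs of the genes ran from 0.21 (Hyou1 with Hsp90b1) to 0.90 (Hspa5 with Calr), with a median of 0.70 over 45 pairs and 23 libraries. These are descriptions: the values share their libraries, depth and scaling. Hspa5 followed the mean of the other 9 most closely (r = 0.919, rank 1 of 17788 genes), then Calr (0.908, rank 2), Pdia6 (0.874, rank 4) and Pdia3 (0.852, rank 5). Hsp90b1 (0.675, rank 26) and Hyou1 (0.646, rank 30) followed it least. Over all tested genes the median r was 0.0018, and 1.24% had an r above 0.5. The median r of the 10 genes was 0.784, or 0.792 with the choroid plexus score regressed out as well.

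**Figure D5:**
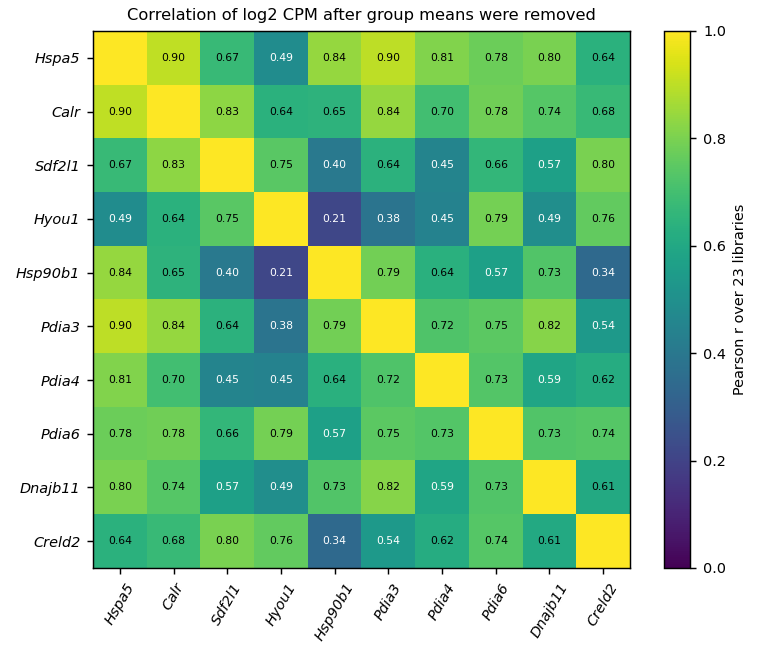
Pearson's r between the 10 genes over 23 libraries after the mean of each group was removed from log2 CPM. Hspa5, Calr and Pdia3 form the brightest block (0.84 to 0.90), and Hyou1 with Hsp90b1 is the darkest cell (0.21).

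The genes outside the list that were most like it by this measure were Manf, an ER stress-induced secreted protein (r = 0.884, rank 3), and Xbp1, which encodes the factor made active by IRE1 splicing (r = 0.834, rank 6). Noxred1 (0.800), Nfya (0.765), which encodes a subunit of NF-Y, Proser3 (0.758), Uggt1 (0.738), a sensor of glycoprotein folding, Stip1 (0.735), a cytosolic Hsp70 and Hsp90 co-chaperone, and Tm6sf2 (0.725) followed. Other genes overlap 92.3% of the Manf gene body, so its count is uncertain.

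Of 25 measured ER folding genes outside the list, 0 were higher and 2 lower in P301S normoxia by edgeR, Manf (-0.51, adjusted p = 0.00580) and Creld1 (-0.25, adjusted p = 0.0458), against 3.59% of all genes called lower; none was called in the other comparisons. Their median was -0.03 there and 0.04 for the interaction, where Manf was at 0.69 (edgeR adjusted p = 0.0864). These 25 genes and the named gene lists that follow were chosen with earlier results of these data known. In those results ER chaperone genes were lower in P301S than in WT in normoxia. Nothing is therefore read from how many genes of these lists were called. Canx, the membrane-bound relative of calreticulin, averaged 339 ± 21.6 CPM in P301S hypoxia, 322 ± 25.1 CPM in P301S normoxia, 305 ± 13.6 CPM in WT hypoxia and 325 ± 14.9 CPM in WT normoxia. P4hb, the gene of the founding disulfide isomerase, averaged 98.6 ± 4.29, 98.0 ± 5.27, 108 ± 6.33 and 108 ± 4.58 CPM in P301S hypoxia, P301S normoxia, WT hypoxia and WT normoxia, so its mean was lower in both P301S groups and nearly equal in both WT groups.

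Of 17 sensors and transcription factors of the unfolded protein response, 1 rose and 3 fell in P301S against WT in normoxia, where 5.93% of all genes were called and 3.59% as lower. Mbtps2, a protease that activates ATF6, was at 0.24 (edgeR adjusted p = 0.0133), Xbp1 at -0.44 (adjusted p = 0.00512) and Creb3 at -0.24 (adjusted p = 0.0201). The other that fell was Atf6b, a relative of ATF6 (-0.31, adjusted p = 0.0348), named after its value was seen. The list median was -0.06. Xbp1 averaged 68.8 ± 7.68 CPM in P301S hypoxia, 56.6 ± 4.51 CPM in P301S normoxia, 65.1 ± 3.79 CPM in WT hypoxia and 76.7 ± 10.1 CPM in WT normoxia, with an interaction of 0.52 (adjusted p = 0.146). Gene counts do not separate its spliced form.

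In hypoxia, 1 of the 17 rose and 2 fell in P301S against WT, where 1.93% of all genes were called. Creb3l2, a relative of ATF6, was at 0.29 (adjusted p = 0.0136), Creb3 at -0.23 (adjusted p = 0.0389) and Atf4, the factor of the PERK branch, at -0.36 (adjusted p = 0.0498). Creb3l2 averaged 31.4 ± 2.01 CPM in P301S hypoxia, 29.4 ± 1.73 CPM in P301S normoxia, 25.7 ± 1.06 CPM in WT hypoxia and 29.6 ± 2.69 CPM in WT normoxia, so that WT hypoxia was the low group. Atf4 averaged 76.8 ± 4.10, 79.2 ± 5.30, 98.5 ± 17.6 and 91.0 ± 11.4 CPM in P301S hypoxia, P301S normoxia, WT hypoxia and WT normoxia. None of the 17 was called for hypoxia in either genotype or for the interaction by edgeR. Their median interaction was 0.01.

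The steps after and before folding were covered by lists of degradation and translocation genes. Of 16 genes of ER-associated degradation, which removes misfolded proteins, 1 fell in P301S normoxia (Herpud1, -0.26, adjusted p = 0.0450) and none was called elsewhere, against 3.59% of all genes called lower in P301S normoxia. Of 15 genes of ER translocation, Sec61b (-0.43, adjusted p = 0.00346), Ssr2 (-0.37, adjusted p = 0.00362) and Ssr4 (-0.32, adjusted p = 0.00722) fell in P301S normoxia, or 3 of 15 against the same 3.59%. Nothing is read from that count, because the list was chosen with earlier results of these data known. Ssr2 (-0.32, adjusted p = 0.0116) and Ssr4 (-0.25, adjusted p = 0.0437) also fell in P301S hypoxia against WT hypoxia, or 2 of 15 where 1.93% of all genes were called in either direction. Ssr2, a subunit of the translocon-associated protein complex, averaged 29.3 ± 2.34, 27.8 ± 2.30, 36.5 ± 2.19 and 35.8 ± 2.52 CPM in P301S hypoxia, P301S normoxia, WT hypoxia and WT normoxia, and its interaction was 0.05 (adjusted p = 0.918). Median interactions of these lists were 0.07 for degradation and 0.05 for translocation.

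Cytosolic and mitochondrial chaperone genes were set beside the ER genes. Besides relatives of the ER families, the 16 included the chaperonin genes Hspd1, Hspe1, Cct2 and Tcp1. Chaperonins have no member among the 10 genes of the ER lumen. None of the 16 rose and 2 fell in P301S normoxia by edgeR, against 3.59% of all genes called lower. Those that fell were the chaperonin genes Cct2 (-0.16, adjusted p = 0.0224) and Hspe1 (-0.21, adjusted p = 0.0480). None of the 16 was called in the other comparisons. Hsp90ab1, the constitutive cytosolic Hsp90, averaged 1468 ± 67.6, 1306 ± 61.4, 1416 ± 41.6 and 1439 ± 80.6 CPM in P301S hypoxia, P301S normoxia, WT hypoxia and WT normoxia. Its interaction was 0.19 (adjusted p = 0.370). Hsph1, a cytosolic Hsp110, had an interaction of 0.33 (adjusted p = 0.363), and the median of the list was 0.08. The mitochondrial Hsp70 gene Hspa9 averaged 217 ± 7.14, 203 ± 10.4, 224 ± 12.1 and 215 ± 9.09 CPM in the order P301S hypoxia, P301S normoxia, WT hypoxia and WT normoxia.

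Other genes that carried an ERSE or ERSE-II in the promoter window had median log2 fold changes from -0.04 to 0.07 over the 5 comparisons. Of 22 such tested genes, 1 was called in P301S normoxia (Herpud1, lower) and none in another comparison; with 5.93% of all genes called, nothing is read from that count. The median was 0.01 for P301S in normoxia, 0.03 for P301S in hypoxia, -0.04 for hypoxia in WT, 0.07 for hypoxia in P301S and 0.00 for the interaction. Over 12575 tested genes with a window it was 0.012, 0.0018, 0.003, -0.0033 and -0.0026 in the same order. Within the list, Sdf2l1, without a match, had the largest interaction and Hsp90b1, with a pair of ERSE copies, the smallest. Sdf2l1 had the lowest counts of the list and the count of Hsp90b1 is uncertain. Whether the motif bears on the fold changes was not tested. The 10 genes were shorter than the typical gene: their median gene body was 14090.5 bases, against 22317 over all tested genes, and their median GC content 49.5% against 49.4%. Removing each library's trend with length and GC left 8 of the 10 called in P301S normoxia (2.92% of all genes), with a median of -0.31, and a median interaction of 0.49.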

How the data were processed

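Gene counts were measured in 23 hippocampal libraries. Per the submitters' processing notes the authors used HISAT2, featureCounts and DESeq2 1.6.3 with the mm10 build; per the file headers the deposited counts came from featureCounts 1.6.2 with Ensembl release 90 genes. They are raw whole-number counts per gene, 1 file per library, with no column left unmapped; normalized files of the authors were not used here. Those headers show that a pair was assigned to a gene's full span, so intron reads count, that strand was ignored despite the stranded kit, and, by the alignments' names, that duplicates had been taken out. That tool by default drops reads over more than 1 gene on either strand, so overlapped genes can be undercounted and are marked as uncertain; duplicate removal can lower abundant short transcripts most. Depth was 19134422 to 25820145 counts per library, and each gene's lowest library held 118 (Sdf2l1) to 5997 (Calr) counts.

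The 10 genes and all other lists were chosen with earlier results of these data known. Counts were filtered with filterByExpr (minimum count 10), scaled by TMM and fitted once with 4 group means in edgeR 4.0.16 (R 4.3.3; robust quasi-likelihood test, two-sided, Benjamini-Hochberg adjustment over 17788 genes, threshold 0.05). CPM use TMM library sizes; correlations use log2 CPM with a prior count of 2. Beside the 10 genes, the text names up to 3 genes per list and comparison by lowest p, the 8 genes most like the 10, and single genes as stated. The fit was tested on simulated data with log2 changes of 0.3, 0.5 and 1. It called 37.3%, 77.6% and 97.0% of the changed genes for P301S against WT in normoxia. For hypoxia in P301S the shares were 37.3%, 86.6% and 92.4%, and for the interaction 11.9%, 49.3% and 86.4%. Unchanged genes called numbered 6, 8 and 3 in these comparisons. Alternatives were DESeq2 1.42.0, RLE scaling, no filter, only the groups compared, a choroid plexus covariate, leaving out libraries, and removing length and GC trends; an edgeR version with adjusted deviances was added after seeing the data. Promoters come from RefSeq (GRCm38.p6).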

Additional observations from a re-analysis of the deposited data

Results flagged for a closer look

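Of 40 combinations of gene and group, 4 held a library that stood apart from the others of its group by the gap between it and its nearest neighbour relative to the whole range (Dixon's criterion at 95%); chance alone marks about 1 group in 20. In P301S hypoxia, replicate 2 was the highest for Pdia6 at 140.6 CPM and for Sdf2l1 at 13.6 CPM, and it was also the highest of its group for each of the other 8 folding genes. In WT hypoxia, replicate 2 was the highest for Pdia6 at 117 CPM, and replicate 4 the lowest for Sdf2l1 at 6.23 CPM.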

How the results depend on the processing

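No fold change of the 10 genes changed sign in any of the 5 comparisons under any alternative run. Counts of calls moved more, and they are given as all tested genes and, of the 10 folding genes, those called. In P301S against WT in normoxia (1054 genes, 9 folding genes) DESeq2 called 1639 genes, the fit with no filter 629, the fit of only the groups compared 367 and 4 folding genes, the fit without the 6 libraries lowest in choroid plexus markers 367 and 3, and that with length and GC trends removed 520. In P301S against WT in hypoxia (343 and 0) they called 854 and 2 by DESeq2, 182 with no filter, 152 with only the groups compared and 8 without the 6 libraries. For hypoxia in WT (14 and 0) the values were 151 and 4 by DESeq2, 6 with no filter, 4 with only the groups compared, 0 without the 6 libraries and 28 with the trends removed. For hypoxia in P301S (54 and 0) they were 363 and 4 by DESeq2, 33 without the 6 libraries, and 276 and 1 with the trends removed. For the interaction (0 and 0) they were 52 and 7 by DESeq2, 3 and 1 with no filter, 7 and 1 with the choroid plexus covariate, and 7 and 2 with adjusted deviances. The causes were not tested; the fits without a filter or without libraries test other numbers of genes or samples.

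With 1 library left out at a time, P301S against WT in normoxia called 330 (without P301S normoxia replicate 2) to 2008 genes (without WT normoxia replicate 1), and 3 to 9 folding genes, 3 only without P301S normoxia replicate 2. P301S against WT in hypoxia called 85 to 610 genes and 0 to 1 folding genes, hypoxia in WT 2 to 34 and 0 to 1 (1 without WT normoxia replicate 1 or 3 or P301S hypoxia replicate 2), hypoxia in P301S 2 to 143 and 0 to 1, and the interaction 0 to 6 and 0 to 2. The median within-group r of the 10 genes ran from 0.753 (without P301S hypoxia replicate 2) to 0.840. For single genes, 1115 of these results stayed on their side of the threshold, 24 lost the call and 11 gained it. No paired analysis was possible because the labels give no replicate numbers: those used here follow accession order and only name a library. Depth limits Sdf2l1 most, with 118 counts in its lowest library.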
